A study of Mus musculus with 4 samples.

Results

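The genes described here encode the proteins of the mitochondrial ribosome. The rule for members used the symbol alone, but the family was chosen with earlier results of these data known. A member was a probe set whose platform annotation gave exactly 1 gene symbol. That symbol was made of Mrpl or Mrps, a number and at most 1 letter from a to c. This gave 85 probe sets of 77 genes, out of 35556 probe sets and 19938 genes with a probe set of their own. The large subunit symbols (Mrpl) covered 48 genes with 53 probe sets, and the small subunit symbols (Mrps) covered 29 genes with 32 probe sets. A member stood for 1 probe set, 8 genes had 2 of them, and 1 further probe set that paired such a symbol with other symbols was left out.

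RNA from 4 samples of sorted mouse bone marrow cells was hybridised to Affymetrix Mouse Gene 1.0 ST arrays, which carry probes spread along each transcript. Control mice were Mx1Cre-GABPa(FL/+), with 1 floxed and 1 normal Gabpa allele, and the other mice were Mx1Cre-GABPa(FL/-), with 1 floxed and 1 null allele, so that Cre leaves 1 working allele in control cells and none in the others. Each group had 2 arrays. Both groups carried the Cre transgene and received pIpC, a double-stranded RNA analogue that induces interferon and thereby switches on the Mx1 promoter, which is not limited to blood cells. Cells were taken 4 days after the final pIpC dose from mice aged 6 to 8 weeks on a stock backcrossed for 4 generations to C57/BL6. The sorted fraction was Flt3(-) LSK, lineage-negative cells with Sca-1 and c-Kit on their surface, a fraction rich in hematopoietic stem cells. Between 800 pg and 50 ng of RNA went into amplification. Nothing in the labels tells whether separate animals gave the samples of a group, so every p-value reflects only how far these 4 samples spread, which may be technical.

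GABP is an ETS-family transcription factor made of the DNA-binding α subunit and a β subunit, and it is known for binding promoters of nuclear genes for mitochondrial proteins, those of the mitochondrial ribosome among them. The mitochondrial ribosome translates the few proteins encoded by mitochondrial DNA, all of them parts of the respiratory chain and ATP synthase. All of its proteins are made in the cytosol from nuclear genes and imported, while its RNAs come from mitochondrial DNA. Its small subunit decodes the messenger RNA and its large subunit joins amino acids and carries the exit tunnel.

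The deposited values are log2 expression values, 1 per probe set and array. Differences are the mean of the deficient-labelled arrays minus the mean of the control arrays, on that log2 scale, with a standard error (SE) from limma's fit and p-values adjusted by Benjamini and Hochberg's method across the 35556 probe sets. Of all probe sets 0% passed an adjusted p under 0.05 in limma's fit (lowest adjusted p = 0.169), so nothing below is called changed, and at an unadjusted p under 0.05, 6.64% were higher and 5.25% lower. Cyclic loess, another scaling, turned these 2360 higher and 1865 lower probe sets into 1191 and 2349, and it moved the median difference of all probe sets from 0.15 to −0.0045. Gabpa itself stood at 8.43 and 7.28 in the controls against 6.43 and 7.85 in the samples labelled deficient, so deficient replicate 2 lay between the controls (difference −0.71, SE 0.68). A whole-transcript probe set can lie outside the deleted exons and may check nothing about the deletion. Gabpb1, a β subunit, read 7.47 and 6.48 against 6.19 and 6.41 (difference −0.67, SE 0.39), and Gabpb2 differed by −0.28 (SE 0.31). Kit, which encodes the sorting marker c-Kit, read 10.21 and 10.21 against 7.70 and 8.50. Flt3 read 8.43 and 9.26 against 5.68 and 5.95 (difference −3.03, SE 0.35), so it was the higher in the controls although the sorted fraction was Flt3(-). Ly6a, which encodes Sca-1, had no probe set of its own and was not analysed here.

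Most mitochondrial ribosomal protein probe sets had a higher mean over the deficient-labelled arrays, and the medians were highest on deficient replicate 1. Each of the deficient-labelled arrays lay above the control mean for 33 of 53 large and 14 of 32 small subunit probe sets. Over all probe sets this held for 18394 of 35556. The median large subunit probe set stood at 8.78 and 8.87 in the controls against 9.72 and 8.96 on the deficient-labelled arrays. The small subunit stood at 8.81 and 8.72 against 9.52 and 8.69, so its median on deficient replicate 2 was below both controls. Deficient replicate 1 exceeded deficient replicate 2 for 42 of the 53 large subunit probe sets and 31 of the 32 small subunit probe sets, against 45.9% of all probe sets. The median gap between these 2 arrays was 0.35 for the large and 0.68 for the small subunit, against −0.031 over all probe sets, while the median gap between the control arrays was −0.022 and −0.074. In the small subunit the gap between arrays of the same label was thus larger than the median difference between the groups, given next.

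**Figure D1:**
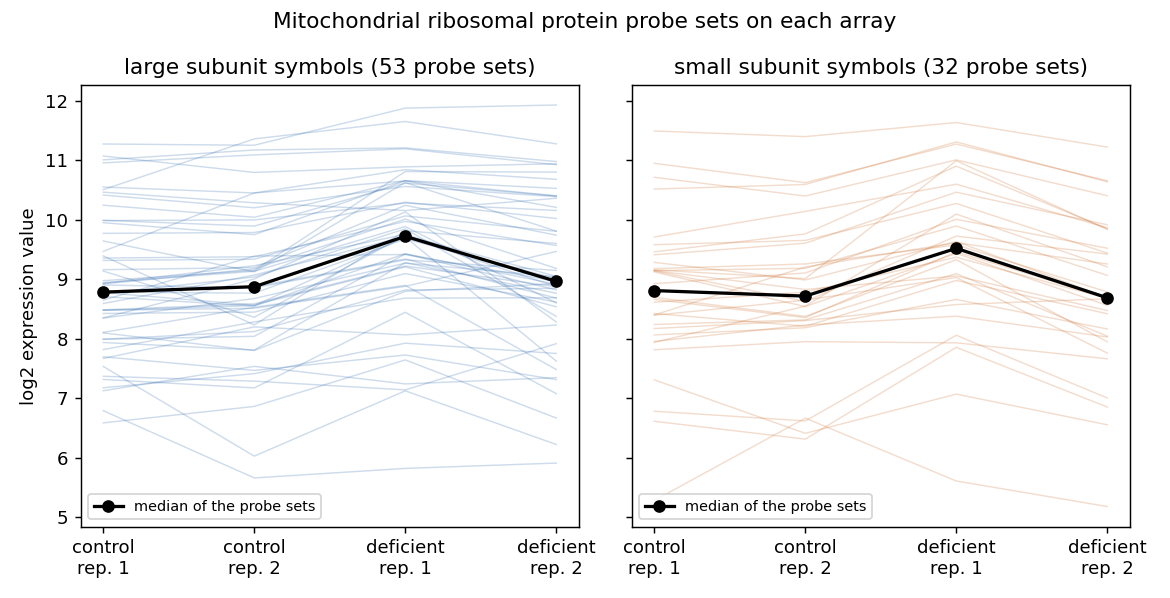
Log2 expression value (vertical axis) of every mitochondrial ribosomal protein probe set on the 4 arrays (horizontal axis), 53 with large and 32 with small subunit symbols, 1 thin line per probe set and the median in black. The black line peaks at deficient replicate 1 in both panels (9.72 and 9.52) and is back at 8.96 and 8.69 at deficient replicate 2.

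The median difference was 0.45 for the large and 0.30 for the small subunit, or 0.30 and 0.15 above the median of all probe sets. Of the large subunit probe sets 46 of 53 lay above 0, and of the small subunit probe sets 25 of 32, against 66.3% of all probe sets. No member passed an adjusted p under 0.05 in limma's fit (0 of 85, against 0% of all), and their lowest adjusted p was 0.173. Data were simulated with the spreads of this table shuffled among probe sets and a true difference in few of them. Of the probe sets with a true difference of 0.5, 1 or 2, 0% passed. At a true difference of 4, 38.4% did, so a count of 0 cannot tell whether members differ. These shares depend on how many probe sets truly differ, which is not known here. At an unadjusted p under 0.05, 13 large subunit probe sets were higher and 0 lower, and 3 small subunit probe sets were higher and 0 lower. Those higher make up 24.5% of the large and 9.38% of the small subunit probe sets, beside 6.64% of all. Without control replicate 1 the large and small subunit medians were 0.38 and 0.30, against 0.11 for all probe sets. Without control replicate 2 they were 0.44 and 0.33, against 0.19. Without deficient replicate 2 both were 0.67, against 0.13. Without deficient replicate 1 the small subunit median turned to −0.062 and the large subunit median was 0.23, against 0.14 for all probe sets.

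**Figure D2:**
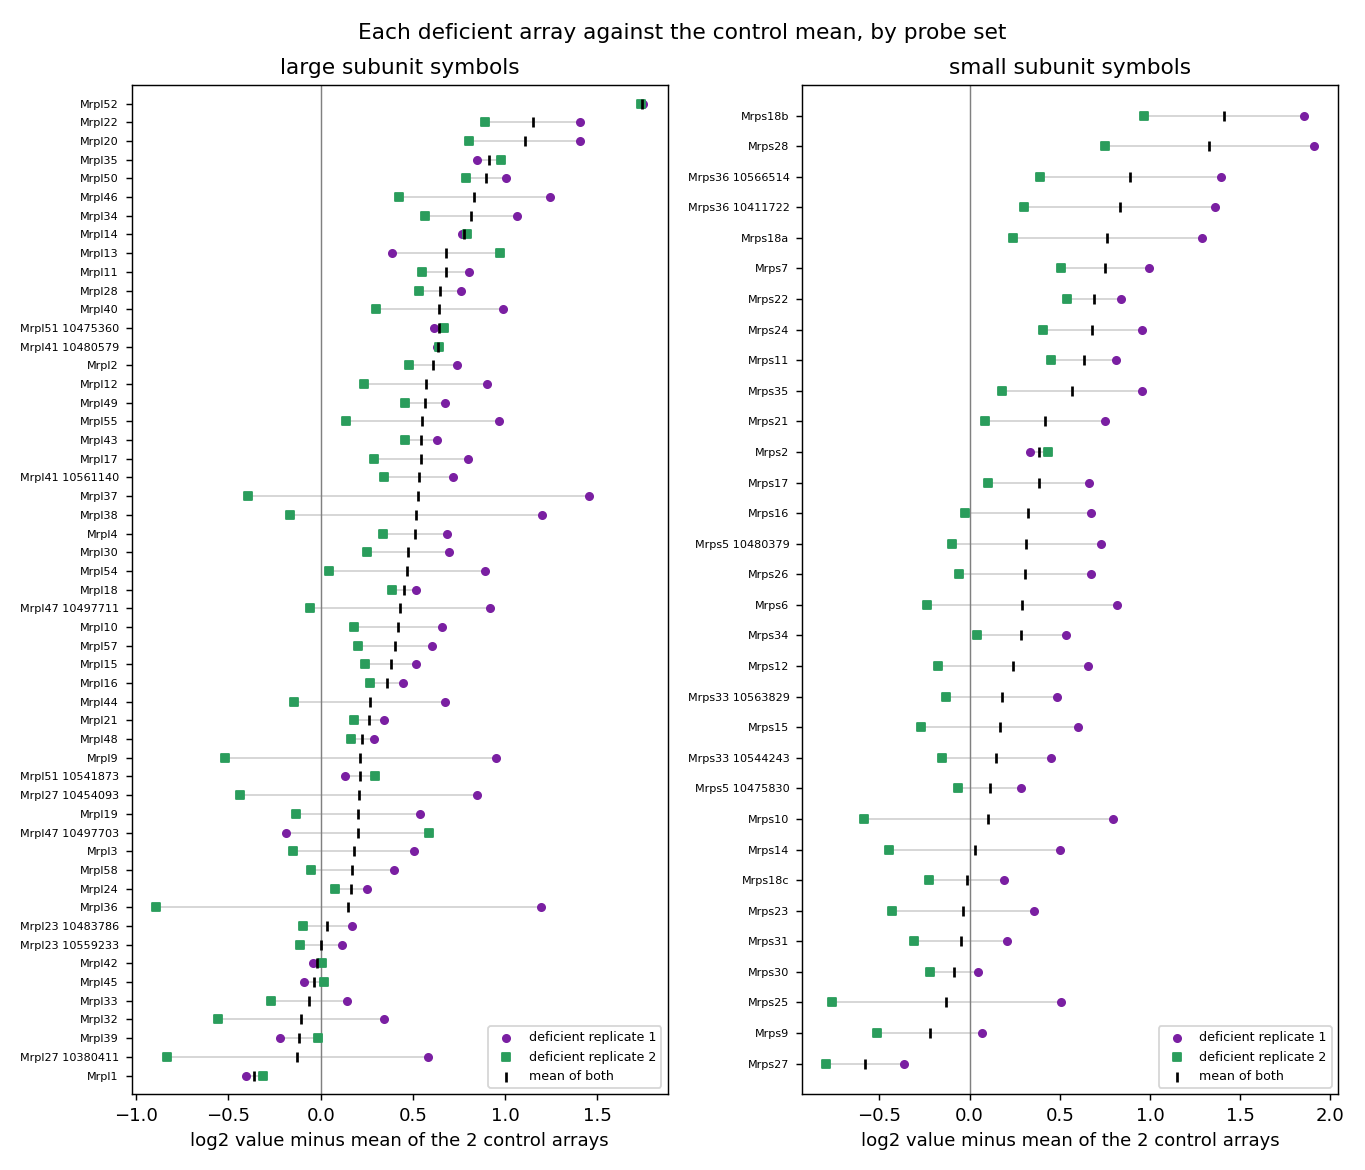
Log2 value of deficient replicate 1 (circles) and deficient replicate 2 (squares) minus the mean of the 2 control arrays (horizontal axis), 1 row per probe set, ordered by the mean of both (tick). Circles lie right of squares for 42 of 53 large and 31 of 32 small subunit probe sets, and Mrpl52 has the highest mean, 1.74, with both arrays almost at 1 point.

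Both deficient-labelled arrays lay above both control arrays for 27 of 53 large and 12 of 32 small subunit probe sets, where 38.9% of all probe sets did so, and below both for 0 of 85, where 14.0% of all did so. The small subunit share of 37.5% is near the background, and the large subunit share is 50.9%. Deficient replicate 1 by itself lay above both controls for 46 of 53 and 28 of 32, against 52.1% of all probe sets. For deficient replicate 2 the counts were 29 of 53 and 12 of 32, against 53.1% of all. That array lay below both controls for 11 large and 11 small subunit probe sets, against 24.3% of all. The members' shares thus exceeded those of all probe sets on deficient replicate 1, while on deficient replicate 2 the large subunit share was near and the small subunit share below the background.

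Many promoters of these genes hold the core of an ETS site. The motif CCGGAAG and the overlapping motif CGGAAGT, of the kind that GABP and other ETS factors bind, were searched on both strands of windows from 250 bases before to 50 after each start site (RefSeq, GRCm38.p6). Of the 77 genes, 68 had a window. CCGGAAG was found for 25 of these 68 (36.8%), 14 of 42 large and 11 of 26 small subunit genes, against 13.6% of the 15563 genes with a window and a probe set of their own. CGGAAGT was found for 17 of 68 (25%), against 10.0%. The median GC content of the windows was 58.5% for the members and 57.7% for those genes. Of 29 matches to CCGGAAG, 26 began between 100 bases before the start site and the end of the window, and 9 lay after the start. Cytosolic ribosomal protein genes had CCGGAAG for 37.5% of 48 genes and complex I genes for 12.9% of 31. A match is a stretch of letters and not a measured binding site.

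**Figure D3:**
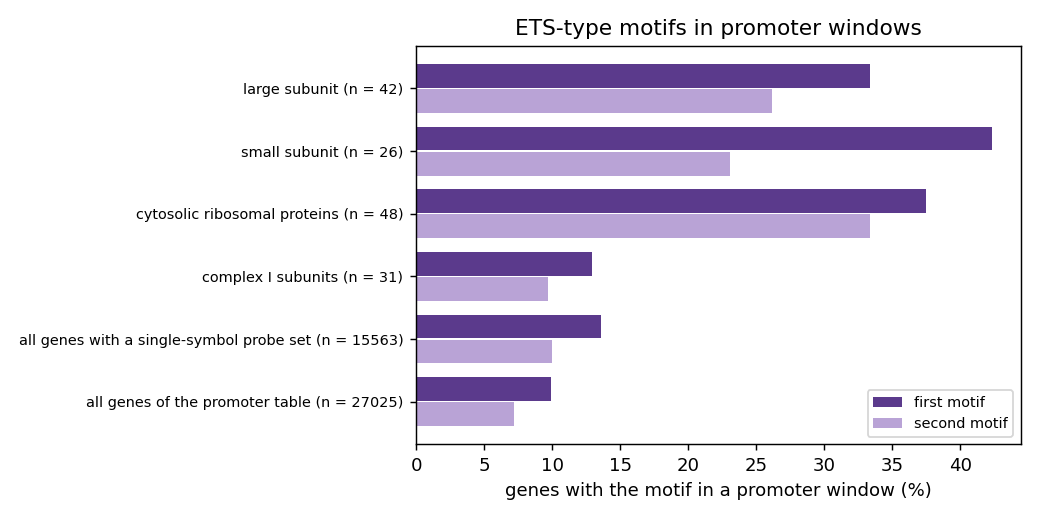
Share of genes in percent (horizontal axis) with CCGGAAG (first motif, dark bars) or CGGAAGT (second motif, light bars) in a promoter window, by gene set, with the number of genes with a window. The dark bars of both mitoribosome subunits (33.3% and 42.3%) are longer than that of all genes with a probe set of their own (13.6%).

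Genes with a motif did not have the higher median throughout. The median difference was 0.43 in the 14 large subunit genes with CCGGAAG and 0.50 in the 28 without, and 0.31 and 0.29 in the 11 and 15 small subunit genes. Split by CGGAAGT, it was 0.36 in 11 large subunit genes with the motif and 0.53 in 31 without, and 0.34 in 6 and 0.27 in 20 small subunit genes. By both motifs, the genes that hold it had the lower median in the large subunit and the higher one in the small subunit. The joined run CCGGAAGT, found for 12 of 68 member genes (17.6%) against 6.03% of the 15563, went with the lower median in both, at 0.34 in 8 and 0.50 in 34 large subunit genes and 0.14 in 4 and 0.30 in 22 small subunit genes.

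Among large subunit genes, Mrpl52, a protein that the bacterial ribosome lacks, had the largest difference of all members. It read 8.97 and 9.15 against 10.81 and 10.80, here and below the 2 control arrays against the 2 deficient-labelled ones, replicate 1 first. The groups were well apart, and the deficient-labelled arrays lay closer together than the controls. The difference was 1.74 (SE 0.15, limma adjusted p = 0.173), rank 212 of all 35556 probe sets. Its promoter window, on the plus strand of GRCm38.p6 at chr14:54426659-54426958, is shown because it goes with the largest difference and holds more than 1 motif match. Capitals in this and the following windows mark CCGGAAG and CGGAAGT on either strand, so that a match on the opposite strand reads CTTCCGG or ACTTCCG.
Mrpl52: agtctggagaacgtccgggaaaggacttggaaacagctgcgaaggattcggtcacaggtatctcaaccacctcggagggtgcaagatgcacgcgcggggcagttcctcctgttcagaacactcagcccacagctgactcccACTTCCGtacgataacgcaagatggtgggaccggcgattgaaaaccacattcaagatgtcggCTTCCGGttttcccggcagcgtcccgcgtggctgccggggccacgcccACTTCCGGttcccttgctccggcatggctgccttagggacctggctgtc

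Mrpl51, another protein without a bacterial relative, had 2 probe sets that differed. Probe set 10475360 read 11.27 and 11.25 against 11.88 and 11.93 (difference 0.64, SE 0.14, adjusted p = 0.357), and probe set 10541873 read 7.67 and 8.20 against 8.06 and 8.23 (difference 0.21, SE 0.24). The groups were apart on the first and overlapped on the second. Which of the 2 lies at the locus of the window below was not checked. Comparisons by motif and by neighbouring start site used the first, the brighter. The Mrpl51 window on the plus strand at chr6:125191950-125192249 holds both motifs as 1 joined run, as does that of Mrpl27 on the plus strand at chr11:94653541-94653840. Mrpl27, a relative of a bacterial protein near the peptidyl transferase centre, is the contrast: its 2 probe sets differed by −0.13 (SE 0.55) and 0.21 (SE 0.49). On deficient replicate 1 they read 8.90 and 9.88, above the controls (8.11 and 8.53, 8.94 and 9.13), and on deficient replicate 2 they read 7.48 and 8.60, below them.
Mrpl51: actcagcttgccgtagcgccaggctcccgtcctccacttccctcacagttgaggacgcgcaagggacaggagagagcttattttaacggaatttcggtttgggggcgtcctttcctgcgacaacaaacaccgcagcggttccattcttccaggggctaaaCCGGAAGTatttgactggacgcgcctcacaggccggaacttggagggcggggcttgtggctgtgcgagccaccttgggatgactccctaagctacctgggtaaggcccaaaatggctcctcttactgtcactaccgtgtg
Mrpl27: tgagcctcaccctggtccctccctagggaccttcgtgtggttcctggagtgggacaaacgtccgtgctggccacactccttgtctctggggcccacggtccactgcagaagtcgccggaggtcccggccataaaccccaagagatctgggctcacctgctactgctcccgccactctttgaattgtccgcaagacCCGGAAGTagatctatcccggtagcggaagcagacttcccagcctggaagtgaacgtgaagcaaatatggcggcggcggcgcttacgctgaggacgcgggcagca

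The next large subunit genes by unadjusted p had smaller differences than Mrpl52. Mrpl22, whose bacterial relative lines the exit tunnel, read 7.94 and 7.81 against 9.28 and 8.76 (difference 1.15, SE 0.23, adjusted p = 0.345). Mrpl20, whose bacterial relative is needed early in assembly, read 7.99 and 8.04 against 9.42 and 8.82 (difference 1.11, SE 0.26, adjusted p = 0.375). Mrpl35 read 8.10 and 7.80 against 8.80 and 8.92 (difference 0.91, SE 0.18, adjusted p = 0.331). In all 3 the groups were apart, and in Mrpl35 deficient replicate 2 was the higher of its group. Mrpl14, which lies at the face that meets the small subunit, read 7.99 and 8.12 against 8.82 and 8.85 (difference 0.78, SE 0.14, adjusted p = 0.323).

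The stalk that recruits translation factors is formed by Mrpl12 on a base that includes Mrpl11. Mrpl11 read 9.95 and 9.75 against 10.65 and 10.40 (difference 0.68, SE 0.18, adjusted p = 0.397). Mrpl12 read 8.78 and 8.76 against 9.68 and 9.01 (difference 0.57, SE 0.28, adjusted p = 0.447), so deficient replicate 2 lay only a little above the controls. The other large subunit genes at an unadjusted p under 0.05 were Mrpl2, a core protein near the catalytic centre, Mrpl28, Mrpl34, Mrpl43, Mrpl49 and 1 of 2 probe sets of Mrpl41, with differences from 0.54 to 0.81. Apart from Mrpl41 these were picked out with their values in view.

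The large subunit also held genes whose 2 deficient-labelled arrays went opposite ways. Mrpl36 read 8.48 and 8.56 against 9.71 and 7.62. Mrpl37 read 8.35 and 9.003 against 10.13 and 8.28, and Mrpl9 read 8.76 and 9.04 against 9.84 and 8.37. In these 3 genes deficient replicate 1 was the highest of the 4 arrays and deficient replicate 2 the lowest, and the differences were 0.15 (SE 0.77), 0.53 (SE 0.72) and 0.21 (SE 0.56). Mrpl58, a peptidyl-tRNA hydrolase built into the ribosome, read 8.65 and 9.39 against 9.41 and 8.96 (difference 0.17, SE 0.34).

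Few large subunit genes read lower, and none was near the threshold. Mrpl1, a protein of the stalk near the exit site, read 6.79 and 5.66 against 5.82 and 5.91 (difference −0.36, SE 0.43, adjusted p = 0.672). Mrpl39 differed by −0.12 (SE 0.17), Mrpl33 by −0.063 (SE 0.22) and Mrpl32, which is cut by the mitochondrial m-AAA protease before assembly, by −0.11 (SE 0.65). All 4 had overlapping groups, and Mrpl32 varied most between the control arrays, at 7.53 and 6.03.

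Small subunit genes showed the same order of arrays with a lower second array. Mrps18b, 1 of 3 relatives of a bacterial protein, had the largest difference, with 7.94 and 8.55 against 10.09 and 9.21 (difference 1.41, SE 0.41, adjusted p = 0.407). Mrps18a read 9.46 and 9.76 against 10.90 and 9.85 (difference 0.76, SE 0.42, adjusted p = 0.465). Mrps18c read 11.49 and 11.40 against 11.63 and 11.22 (difference −0.017, SE 0.20, adjusted p = 0.972). The groups were apart for Mrps18b and Mrps18a and overlapped for Mrps18c. Structures of the ribosome place the Mrps18a protein in the large subunit, and the proteins of Mrps18b and Mrps18c at separate places in the small one. The windows of the 3 genes are shown because all 3 hold CCGGAAG while their differences ran from −0.017 to 1.41. They lie on the plus strand at chr17:46110754-46111053 (Mrps18a), on the minus strand at chr17:35916391-35916690 (Mrps18b) and on the plus strand at chr5:100798509-100798808 (Mrps18c). Counted from the start site as base 1, CCGGAAG on either strand spans bases −26 to −20, 44 to 50 and −156 to −150 in this order.
Mrps18a: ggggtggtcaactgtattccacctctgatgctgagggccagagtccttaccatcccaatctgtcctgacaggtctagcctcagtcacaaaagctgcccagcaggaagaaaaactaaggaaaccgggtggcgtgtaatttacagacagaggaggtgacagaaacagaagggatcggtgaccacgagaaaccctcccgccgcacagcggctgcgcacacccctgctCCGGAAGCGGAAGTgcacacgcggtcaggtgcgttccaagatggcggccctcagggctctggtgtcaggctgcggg
Mrps18b: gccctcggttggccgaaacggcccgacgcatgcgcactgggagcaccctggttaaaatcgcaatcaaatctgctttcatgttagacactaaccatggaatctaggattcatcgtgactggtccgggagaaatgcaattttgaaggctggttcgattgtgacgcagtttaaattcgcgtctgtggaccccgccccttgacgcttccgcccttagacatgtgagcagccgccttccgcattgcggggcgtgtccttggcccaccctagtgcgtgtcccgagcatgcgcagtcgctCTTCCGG
Mrps18c: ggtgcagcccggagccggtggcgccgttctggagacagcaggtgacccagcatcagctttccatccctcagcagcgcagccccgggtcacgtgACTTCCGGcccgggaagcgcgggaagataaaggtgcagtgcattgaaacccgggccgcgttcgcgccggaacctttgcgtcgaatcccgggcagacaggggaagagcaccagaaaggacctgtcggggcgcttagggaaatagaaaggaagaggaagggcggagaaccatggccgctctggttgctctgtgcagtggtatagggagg

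Among the other small subunit genes, Mrps28 read 9.16 and 9.01 against 10.99 and 9.83 (difference 1.33, SE 0.44, adjusted p = 0.413). Its deficient-labelled arrays lay above the controls but 1.16 apart. Mrps7, a head protein at the exit site for transfer RNA, read 8.92 and 9.10 against 10.01 and 9.52 (difference 0.75, SE 0.23, adjusted p = 0.408), and Mrps24 read 9.41 and 9.60 against 10.46 and 9.91 (difference 0.68, SE 0.25, adjusted p = 0.421). Mrps12, the decoding centre protein whose bacterial relative carries mutations that give streptomycin resistance, read 9.58 and 9.65 against 10.27 and 9.44 (difference 0.24, SE 0.33). It thus lay above the controls on 1 of the 2 deficient-labelled arrays and below them on the other, as Mrps10 did at 8.69 and 8.37 against 9.33 and 7.95 (difference 0.10, SE 0.53) and Mrps25 at 8.39 and 8.65 against 9.03 and 7.76 (difference −0.13, SE 0.49).

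The lowest small subunit difference was that of Mrps27, an RNA-binding protein, at 5.28 and 6.66 against 5.61 and 5.18 (difference −0.58, SE 0.54, adjusted p = 0.600). Mrps9 differed by −0.22 (SE 0.27), Mrps30, which structures place in the large subunit, by −0.086 (SE 0.17) and Mrps31 by −0.048 (SE 0.40). All 4 had overlapping groups. Mrps36, now known as a part of the 2-oxoglutarate dehydrogenase complex rather than the ribosome, had 2 probe sets at 0.83 (SE 0.41) and 0.89 (SE 0.40), with 6.78 and 6.62 against 8.06 and 7.003 on the first. With Mrps18a and Mrps30 counted in the large subunit and Mrps36 left out, a choice made after the data were seen, the medians were 0.45 and 0.29.

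Genes with 2 probe sets served as a check within a gene. Probe sets of Mrpl23 gave 0.036 and 0.0034, of Mrps33 0.15 and 0.18, of Mrps5 0.11 and 0.32, and of Mrpl41 0.64 and 0.53. Those of Mrpl47 gave 0.20 and 0.43, and on deficient replicate 1 the first lay below both controls (7.14 against 7.37 and 7.29) and the second above both (7.64 against 6.58 and 6.86). The remaining pairs, of Mrpl27, Mrpl51 and Mrps36, are given above. A second probe set of a ribosomal protein gene can report a near-identical copy elsewhere in the genome, so values of these 8 genes are less certain.

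Members with and without a bacterial relative were compared by the number in their symbol. In the large subunit the median difference was 0.40 over 30 probe sets with such a relative and 0.52 over 23 without, and in the small subunit 0.32 over 17 and 0.29 over 15. The further genes Mrpl47, Mrpl55, Mrps24 and Mrps28, have bacterial relatives under other numbers by structure-based naming. With these moved, a step added after the data were seen, the medians were 0.42 and 0.52 in the large subunit and 0.32 and 0.18 in the small. The difference between the classes was smaller than the median gap between the deficient-labelled arrays, 0.35 and 0.68.

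Position in the genome was also shared. Of the 68 genes with a window, 27 (39.7%) had a start site on the opposite strand, facing away, within 1000 bases, against 15.3% of 15563 genes. The starts of Mrpl46 and Mrps11 are 42 bases apart, those of Mrpl49 and Fau 192, Mrps12 and Sars2, a mitochondrial seryl-tRNA synthetase, 147, and Mrpl43 and Twnk, the mitochondrial DNA helicase, 116. In 25 pairs with both genes measured, counting Mrpl46 and Mrps11 from each side, the median difference was 0.53 for the member and 0.084 for its partner, and 14 of 25 partners lay above 0. Members were also short genes, with a median genomic span of 8.12 kb over probe sets against 18.7 kb for all. Over all genes the median difference was 0.23 in the 25% with the shortest span, which held 30 members, 0.19 in the next 25%, which held 35, and 0.079 in the 25% with the longest, which held 6. The part of gene length in the members' difference was not tested.

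Other genes of mitochondrial gene expression read higher in some lists and lower in others. The lists are short, and over all probe sets 6.64% were higher and 5.25% lower at an unadjusted p under 0.05 in limma's fit. Of 5 mitoribosomal proteins that carry other symbols 4 were measured, with 1 higher and 0 lower at an unadjusted p under 0.05 and a median of 0.37. Dap3, a GTP-binding small subunit protein, read 8.12 and 8.00 against 8.93 and 9.13 (difference 0.97, SE 0.16, adjusted p = 0.301). Gadd45gip1, a large subunit protein, differed by 0.61 (SE 0.31), and Ptcd3, a small subunit protein, by −0.66 (SE 0.71), with 5.33 on deficient replicate 1 and 7.26 on deficient replicate 2, the reverse of most members.

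Assembly and ribosomal RNA modification factors had a median of 0.23 over 26 measured genes of 26, with 0 higher and 0 lower at an unadjusted p under 0.05. Trub2, a pseudouridine synthase, differed by 0.57 (SE 0.22), Rpusd4, another, by 0.30 (SE 0.14), Mterf3, an RNA-binding assembly factor, by −0.96 (SE 0.38) and Tfb1m, a ribosomal RNA methyltransferase, by −0.088 (SE 0.24). Translation factors had a median of −0.23 over 15 of 16 genes, with 2 higher and 1 lower. Gfm1, an elongation factor, read 8.65 and 8.77 against 9.64 and 9.45 (difference 0.83, SE 0.16, adjusted p = 0.327), and Slirp, an RNA-binding partner of Lrpprc, differed by 0.74 (SE 0.18). Mtfmt, which formylates the initiator methionyl-tRNA, read 7.28 and 7.54 against 6.51 and 6.31 (difference −1.004, SE 0.18, adjusted p = 0.316).

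Mitochondrial transcription genes had a median of 0.13 over 5 of 6 genes, with 2 higher and 0 lower. Polrmt, the mitochondrial RNA polymerase, read 7.13 and 7.36 against 7.88 and 7.84 (difference 0.61, SE 0.16, adjusted p = 0.393), and Elac2, which trims transfer RNA precursors, differed by 0.84 (SE 0.21). Tfb2m, the initiation factor of that polymerase, read 8.05 and 6.40 against 5.70 and 6.52 (difference −1.11, SE 0.68), and Tfam, which packages mitochondrial DNA, differed by −0.48 (SE 0.41). In Tfb2m and Tfam the control arrays were farther apart than the deficient-labelled arrays.

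Complex I subunits, also nuclear genes for mitochondrial proteins, showed the order of arrays seen in the mitochondrial ribosome. Deficient replicate 1 exceeded deficient replicate 2 for 34 of 38 probe sets of 34 genes, and the median difference was 0.24, with 34 above 0. At an unadjusted p under 0.05 in limma's fit 0 were higher, against 6.64% of all, and 0 lower, against 5.25%. Cytosolic ribosomal proteins did not show it: deficient replicate 1 was the higher for 86 of 212 probe sets of 60 genes, and the median difference was −0.033. They lie near the top of the scale, with a median level of 12.5 against 9.06 for the members. Their median gap between the deficient-labelled arrays, whatever its sign, was 0.084 against 0.51. Some of their probe sets gave identical values. These families were set beside the members as descriptions, with no test between them.

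**Figure D4:**
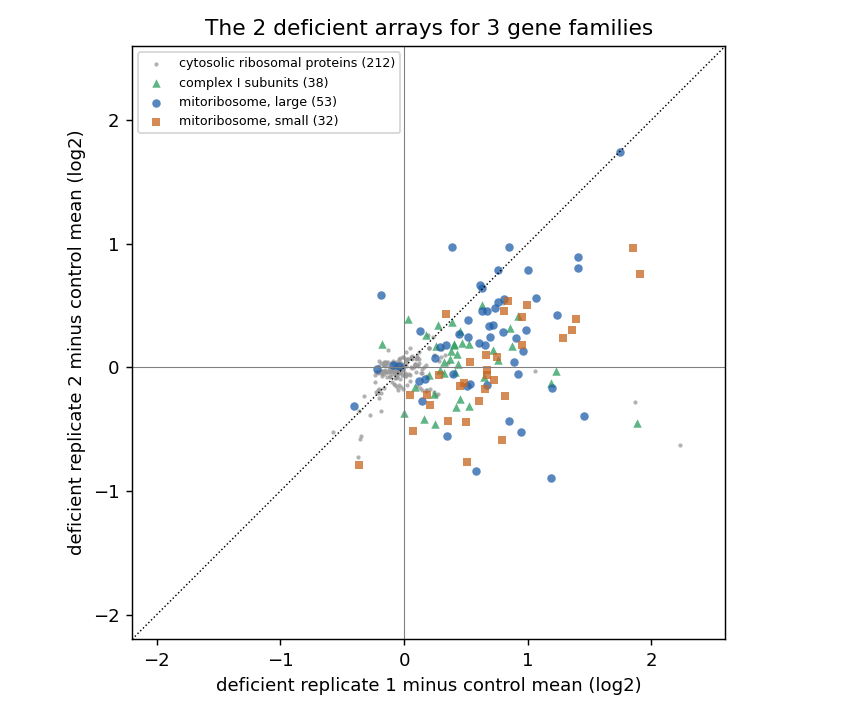
Deficient replicate 1 (horizontal axis) against deficient replicate 2 (vertical axis), each as log2 value minus the mean of the 2 control arrays, 1 point per probe set of the mitochondrial ribosome (53 large, 32 small), complex I (38) and cytosolic ribosomal proteins (212). The dotted line marks equal values, and most mitoribosome and complex I points lie below it, while the cytosolic ones sit around 0.

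Markers of other cells also differed between these arrays. Summed level here is log2 of the summed linear signal of a list. At an unadjusted p under 0.05 in limma's fit, 6.64% of all probe sets were higher and 5.25% lower, the background for the list counts. Erythroid markers (13 of 16 measured) summed to 12.2 on each control array and to 13.68 and 13.84 on the deficient-labelled arrays, and 9 were higher and 0 lower at an unadjusted p under 0.05. Car1, a red cell carbonic anhydrase, read 11.19 and 11.25 against 12.55 and 12.40. Macrophage markers (12 of 12) summed to 9.89 and 10.1 against 11.6 and 10.90, 6 higher and 0 lower, with Cd68 at 7.78 and 8.03 against 9.07 and 7.95. Stromal and endothelial markers (11 of 11) summed to 9.91 and 9.70 against 11.4 and 11.03, 5 higher and 0 lower, with the matrix gene Sparc at 6.19 and 6.56 against 10.38 and 9.98. On the deficient-labelled arrays, macrophage and stromal sums were higher on replicate 1 and the erythroid sum on replicate 2.

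B and plasma cell markers (9 of 10) summed to 10.9 and 10.6 against 11.3 and 11.9, 2 higher and 0 lower, with Jchain at 9.65 and 8.43 against 9.93 and 10.49. T and NK cell markers (9 of 9) summed to 10.8 and 10.7 against 10.1 and 9.76, 2 higher and 0 lower, with Nkg7 at 10.53 and 10.33 against 9.45 and 7.44. Granulocyte and monocyte markers (11 of 11) summed to 13.69 and 13.5 against 13.6 and 13.2, 0 higher and 1 lower, with Mpo at 12.48 and 12.56 against 11.85 and 11.47. Nkg7 and Mpo, the brightest genes of their lists, went against most of the other genes. In the T and NK cell list 7 genes lay above 0 and 2 below. There the median gene differed by 0.38 while the sum was lower on both deficient-labelled arrays. In the granulocyte and monocyte list 7 genes lay above 0 and 4 below. There the median gene differed by 0.27, and the sum on deficient replicate 1 lay between the controls and that on replicate 2 below them. LSK and stem cell markers (10 of 12) summed to 13.2 and 13.1 against 10.9 and 11.03, with 8 lower and 0 higher. Flt3, the marker that the sort selected against, and Cd48 are in this list and among those 8. Adgrg1, an adhesion receptor of stem cells, read 11.30 and 11.31 against 9.35 and 9.15. Mitosis genes (11 of 12) summed to 12.8 and 12.7 against 13.2 and 13.04, 4 higher and 0 lower. This list was split, with 6 genes above 0 and 5 below and a median of 0.33. Both deficient-labelled arrays lay above both controls for 5 of its genes and below both for 2, where 38.9% and 14.0% of all probe sets did so. Array values have no 0 and no detection calls were used. In bulk RNA fewer cells of a type and less RNA per cell cannot be told apart, and the part of these cell types in the members' difference was not tested.

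Both other scalings lowered the medians of the members and of all probe sets. Under cyclic loess the medians were 0.41 for the large and 0.25 for the small subunit, against −0.0045 for all probe sets, and with array medians subtracted they were 0.37 and 0.22, against 0.065. Members are bright probe sets, with a median brightness at percentile 90.4 of all for the large and 89.7 for the small subunit. Without the dimmer 50% of probe sets, which took out 1 small subunit probe set, the median of all was 0.079 and those of the subunits were 0.45 and 0.31.

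**Figure D5:**
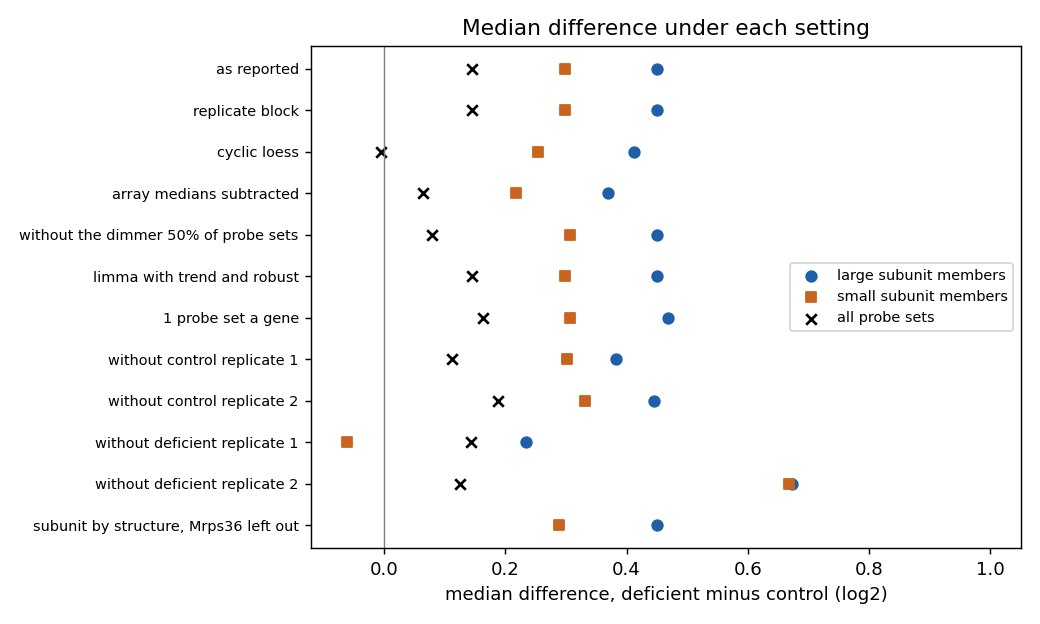
Median log2 difference, deficient minus control (horizontal axis), of large subunit members (circles), small subunit members (squares) and all probe sets (crosses, not computed for the last row) under each setting (rows). Both subunits stay right of the crosses in every row but the one without deficient replicate 1, where the small subunit lies at −0.062 and all probe sets at 0.14.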

How the data were processed

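Expression was measured on 4 arrays, 2 per group. The deposited log2 values, 1 per probe set, were made by the authors with RMA and Partek, per the submitters' processing notes, which give no versions. RMA corrects background, quantile-normalizes arrays and summarises probes, so a change shared by most genes could be scaled away in part or whole. An offset remained in the deposited values. The medians of all probe sets were 5.87 and 5.91 in the controls against 5.93 and 6.01, and 66.3% of differences lay above 0. The authors' genome build and annotation were not given in the sources used here. The values, from 1.98 to 13.67, were used as they stand, and 0 columns were left without a sample. Arrays carry no read depth, and their number limits the precision.

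Gene symbols come from the array platform's annotation, where 21789 probe sets have exactly 1. All 77 member genes matched the RefSeq gene table of GRCm38.p6 by Entrez number, with the same symbol. Other lists used 1 probe set a gene, the one with the highest mean. Groups were compared in R 4.3.3 with limma 3.58.1 (lmFit, eBayes, genotype only) over all 35556 probe sets, and the procedure was tested on simulated data. Figures used matplotlib 3.10.9 in Python 3.11.15. The members and lists were chosen with earlier results of these data known. Mrpl2, Mrpl28, Mrpl34, Mrpl43 and Mrpl49 were picked out with their values in view. Fau, Sars2 and Twnk were named for start sites that neighbour those of members. Most other genes named in the text follow a rule. Per subunit it took the members with the smallest unadjusted p in each direction (6 higher and 4 lower for the large, 4 and 3 for the small), the brightest and dimmest 2, the 3 with the widest gap between the arrays labelled deficient, and those with 2 probe sets. It added Mrpl11, Mrpl12, Mrpl58, Mrps12, the Mrps18 genes, GABP subunits, sorting genes, Tfam, Tfb1m, Tfb2m, Polrmt and Dap3, up to 3 genes a related list and the brightest marker of each cell type list.

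Alternatives were a replicate block, cyclic loess, subtraction of array medians, no dim probe sets, limma with trend and robust, 1 probe set a gene, leaving out each array, and subunits by structure.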

Additional observations from a re-analysis of the deposited data

How the results depend on the processing

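No member passed an adjusted p under 0.05 in limma under any alternative run, and the large subunit median stayed above 0 in all of them, from 0.23 to 0.67 with 1 array left out. The small subunit median ran from −0.062 (without deficient replicate 1) to 0.67 (without deficient replicate 2). At an unadjusted p under 0.05, leaving out 1 array gave 5 to 23 higher and 0 to 1 lower for the large subunit, 1 to 13 and 0 to 1 for the small, and 714 to 2198 higher over all probe sets. Small subunit probe sets higher at that threshold numbered 1 of 32 with array medians subtracted and 5 of 29 with 1 probe set a gene. For the latter the count over all genes is not given here, so the 5 is not set against a background. Over all probe sets 1191 were higher under cyclic loess, 1537 with array medians subtracted, 964 without the dimmer 50%, where fewer were tested, and 1341 with a replicate block. Of the members above 0, 31 of 46 in the large and 14 of 25 in the small subunit stayed above 0 under every alternative.

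Replicate numbers are shared between the groups, but no label ties them to a litter or day, and deviations of same-numbered arrays correlated at −0.088 over all probe sets. With the number as a replicate block 12 large and 2 small subunit probe sets were higher at an unadjusted p under 0.05, and the lowest adjusted p was 0.522.

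Mrpl23 changed sign with scaling: probe set 10483786 was −0.045 with array medians subtracted, and probe set 10559233 was −0.077 there and −0.028 under cyclic loess. With 1 array left out, the differences of 31 named probe sets changed sign, with the following ranges. In the large subunit they were Mrpl1 −0.92 to 0.20, Mrpl33 −0.27 to 0.14, Mrpl27 −0.84 to 0.58 (10380411) and −0.44 to 0.85 (10454093), Mrpl32 −0.86 to 0.65, Mrpl36 −0.89 to 1.19, Mrpl37 −0.40 to 1.45, Mrpl9 −0.52 to 0.95, Mrpl58 −0.20 to 0.54, Mrpl23 −0.098 to 0.17 (10483786) and −0.11 to 0.12 (10559233), Mrpl47 −0.19 to 0.59 (10497703) and −0.057 to 0.92 (10497711), and Mrpl51 −0.052 to 0.48 (10541873). In the small subunit they were Mrps27 −1.27 to 0.11, Mrps9 −0.51 to 0.069, Mrps30 −0.22 to 0.048, Mrps18c −0.22 to 0.19, Mrps31 −0.50 to 0.40, Mrps10 −0.59 to 0.79, Mrps25 −0.76 to 0.51, Mrps12 −0.18 to 0.66, Mrps33 −0.13 to 0.49 (10563829) and −0.15 to 0.45 (10544243), and Mrps5 −0.063 to 0.29 (10475830) and −0.099 to 0.73 (10480379). Outside the members they were Ptcd3 −1.63 to 0.30, Gabpa −1.42 to 0.0021, Gabpb2 −0.65 to 0.098, Tfam −1.01 to 0.050 and Tfb1m −0.32 to 0.14. With 1 array left out, the lone array of a group was assumed to vary like the other group. The cause was not tested.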
